A study of Homo sapiens with 12 samples.

Results

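The data were mined for 40 genes that act in the G2 phase of the cell cycle and in mitosis (the G2/M genes). The members are mitotic kinases, cyclins and CDC25 phosphatases, spindle checkpoint and kinetochore genes, kinesins, spindle and midzone proteins, cytokinesis genes, the anaphase-promoting complex with its targets, and the transcription factor FOXM1. They were chosen by gene symbol from what is known of their function, with earlier results of these data known. All 40 were found among the 26364 gene symbols of the count tables. The study asked how inhibitors of topoisomerases, the enzymes that relieve the twisting of DNA, affect gene expression induced by the cytokine TNFα. It used HCT116, a human colon cancer cell line, as wildtype (WT) cells and as cells deficient for the NF-κB subunit p65 (gene RELA), which are the single-cell clone 32 made by CRISPR-Cas9 according to the methods although the sample labels say shRNA. Since only 1 clone was used, the loss of p65 and other properties of the clone cannot be told apart. The 12 libraries hold 1 library for each combination of line (WT or p65-deficient), inhibitor and TNFα. The inhibitor was none, the TOP1 inhibitor camptothecin (CPT) or the TOP2 inhibitor ICRF193, each at 5 µM for 2 h, and TNFα was given for 0 h or for 1 h at 20 ng/mL. Cells with an inhibitor and TNFα had therefore been in the inhibitor for 3 h in total. Whether the cells without inhibitor had received the solvent is not given in the labels.

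Progress through G2 and mitosis is driven by CDK1 with its partners cyclin A and cyclin B, which the CDC25 phosphatases activate and the kinase WEE1 holds back. Aurora and polo-like kinases then build the spindle with kinesin motors, the checkpoint kinases BUB1 and TTK delay anaphase until every kinetochore is attached, and CDC20 finally directs the anaphase-promoting complex to degrade securin and cyclin B. Transcription of these genes peaks late in the cell cycle, is repressed in G1 by the DREAM complex, and is activated by MYBL2 and FOXM1. Cells with DNA damage, such as the breaks that camptothecin causes in replicating DNA, are known to delay their entry into mitosis.

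Between 8101212 and 22051046 reads were counted per library. Of the 6 p65-deficient libraries, 4 held at most 8755001 reads (all 3 with TNFα for 1 h, and ICRF193 alone), while the other 8 libraries held at least 16300210. Reads were divided by DESeq2 size factors over the 12 libraries to give normalized counts. No condition has a replicate, so that the tests took libraries matched in the other factors as pairs and the p-values measure the spread between these pairs. RELA was at 694 to 909 normalized counts in WT and 548 to 673 in p65-deficient libraries, lower in 6 of 6 pairs (log2 fold change -0.45 ± 0.08 SE, adjusted p = 0.000918, edgeR). With CPT at 0 h the RELA levels of the lines were close, with 694 in WT and 673 in p65-deficient cells. At 0 and 1 h, RELA went with CPT from 908 to 694 and 882 to 727 in WT. In the clone it went from 548 to 673 and 573 to 643. The CPT difference of RELA itself differed between the lines (edgeR interaction, 0.56 ± 0.11 SE, adjusted p = 0.00543). The value over 6 pairs therefore does not describe every treatment. Markers of the epithelium EPCAM, KRT8, KRT18, KRT19 and CDH1 had at least 780 reads in every library, whereas VIL1, the leukocyte, endothelial and 2 of 3 fibroblast markers had at most 4. The fibroblast marker COL1A1 had 57 to 227 reads.

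The 40 members were well expressed in every library. Read counts ran from 204 (CDC25C) to 13696 (CENPF), and all 40 had at least 100 reads in each library. Per kb of exon, the median over the members was 865 normalized counts, compared with 27.4 over the 21096 genes detected. On this scale CDC20, the activator of the anaphase-promoting complex, was highest with a median of 3499 over the 12 libraries, followed by CCNB1 (cyclin B1) with 3037 and BUB3, a checkpoint protein, with 2108. The lowest were CDC25C, a phosphatase that activates CDK1, with 153, the kinetochore motor CENPE with 198 and the kinesin KIF14 with 203. Neighbors in this order overlapped for CDC20 (2960 to 3785) and CCNB1 (2648 to 3438) and for CENPE (124 to 233) and KIF14 (180 to 242), whereas BUB3 (2024 to 2199) lay below CCNB1 in all libraries. The ratio of the highest to the lowest library differed between genes: BUB3 ranged from 5594 to 6078 normalized counts and CCNF from 878 to 2695. The genes lie on 17 chromosomes and span 4248 to 130896 bp in hg19 with a median of 29039.5 bp.

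The members' promoters share sequence motifs that the choice of genes did not use. RefSeq promoter windows (GRCh38.p14, 250 bases before to 50 after a start) were matched by symbol for 33 of the 40 genes, with 43 windows. The motif searched first was TTTGAA, with its variant TTCGAA, the core of the cell cycle genes homology region through which DREAM and MYBL2-MuvB complexes are known to bind. The other was CCAAT, the box bound by the factor NF-Y. Both strands were searched (TTCAAA and ATTGG on the reverse strand), the matches may overlap, and TTCGAA reads the same on both strands. TTTGAA stood in 25 of 43 member windows (58.1%) and in 15.2% of all 35116 windows. The variant TTCGAA was found in 4 member windows (9.3%) and in 1.45% of all. CCAAT was found in 31 member windows (72.1%) against 34.6% of all, and a TTTGAA or TTCGAA together with CCAAT in 22 (51.2%) against 6.38%. Of the 39 TTTGAA or TTCGAA matches in member windows, 18 began within the 100 bases before the start, as did 39 of 62 CCAAT matches. The windows of AURKA, TTK, BUB3, TPX2, BIRC5, UBE2C and FOXM1 were not used here. TTTGAA was present in 9 of 14 genes with a window that were lower with CPT and in 13 of the 19 others. CCAAT was present in 9 of these 14 and in 17 of the 19 others, a difference that was not tested. Shown are the 250 bases before the start, 5′ to 3′ on the plus strand, with the motifs in capitals. The genes are CCNF and KIF23 (lowered most by CPT), PLK1 and KIF11 (lowered less), and CDC20 and HMMR (not called over the 4 pairs). In GRCh38.p14 these windows are chr16:2429197-2429446 (CCNF), chr15:69414099-69414348 (KIF23), chr16:23678639-23678888 (PLK1), chr10:92592880-92593129 (KIF11), chr1:43358731-43358980 (CDC20) and chr5:163460382-163460631 (HMMR).
CCNF: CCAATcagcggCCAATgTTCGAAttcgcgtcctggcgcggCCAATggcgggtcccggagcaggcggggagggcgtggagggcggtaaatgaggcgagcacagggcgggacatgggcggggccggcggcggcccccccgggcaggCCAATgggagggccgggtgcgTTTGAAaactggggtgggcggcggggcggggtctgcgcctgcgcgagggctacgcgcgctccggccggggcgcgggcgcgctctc
KIF23: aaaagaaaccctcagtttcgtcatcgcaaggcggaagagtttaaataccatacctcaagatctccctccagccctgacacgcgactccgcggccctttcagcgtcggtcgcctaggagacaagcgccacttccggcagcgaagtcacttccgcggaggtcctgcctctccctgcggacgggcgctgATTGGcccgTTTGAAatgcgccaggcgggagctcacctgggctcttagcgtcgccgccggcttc
PLK1: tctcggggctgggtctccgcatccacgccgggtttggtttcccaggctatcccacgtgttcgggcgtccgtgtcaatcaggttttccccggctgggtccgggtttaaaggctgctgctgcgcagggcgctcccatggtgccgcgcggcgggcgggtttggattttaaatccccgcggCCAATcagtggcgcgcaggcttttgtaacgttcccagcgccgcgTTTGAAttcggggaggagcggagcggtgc
KIF11: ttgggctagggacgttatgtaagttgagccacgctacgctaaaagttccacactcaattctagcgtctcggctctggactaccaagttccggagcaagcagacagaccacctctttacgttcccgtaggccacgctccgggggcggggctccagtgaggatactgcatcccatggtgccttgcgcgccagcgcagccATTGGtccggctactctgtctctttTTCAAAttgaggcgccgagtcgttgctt
CDC20: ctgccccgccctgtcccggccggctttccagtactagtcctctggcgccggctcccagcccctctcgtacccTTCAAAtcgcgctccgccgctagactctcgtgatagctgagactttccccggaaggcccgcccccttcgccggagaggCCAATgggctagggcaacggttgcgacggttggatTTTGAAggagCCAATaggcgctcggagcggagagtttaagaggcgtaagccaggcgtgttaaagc
HMMR: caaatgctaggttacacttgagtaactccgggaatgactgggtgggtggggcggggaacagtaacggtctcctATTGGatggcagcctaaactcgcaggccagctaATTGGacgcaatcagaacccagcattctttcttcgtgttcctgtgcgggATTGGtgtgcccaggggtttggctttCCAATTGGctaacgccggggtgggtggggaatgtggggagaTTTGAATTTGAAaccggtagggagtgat
The CCNF window holds both TTCGAA and TTTGAA, which begin 233 and 85 bases before the start, and 4 CCAAT boxes. In HMMR a pair of TTTGAA motifs lies back to back, beginning 28 and 22 bases before the start. In PLK1, KIF23 and KIF11 the TTTGAA or TTCAAA lies 29, 55 and 28 bases before the start. The same letters therefore stood in windows of genes that fell with CPT and of genes that were not called.

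In order to see how TOP1 inhibition affected the G2/M genes, CPT was compared with no inhibitor in 4 pairs of WT and p65-deficient cells at 0 and 1 h TNFα. CPT lowered 17 of the 40 members and raised none (quasi-likelihood test of edgeR, blocked by pair, Benjamini-Hochberg adjusted p under 0.05 over 13993 genes). Of all genes tested, 25.1% were lower and 23.2% were higher. At an unadjusted p under 0.05, 18 members were lower and 2 higher, beside 7722 of the 13993 genes in either direction. DESeq2 called 15 members lower and 0 higher, beside 2878 lower and 2418 higher of all genes. Without the pair of shallow libraries (p65-deficient, 1 h) 15 members were lower and 0 higher, beside 3081 lower and 2173 higher of 14103 genes. The median log2 fold change was -0.08 over the members and 0.02 over all genes tested. The members' median was -0.09, -0.11, -0.09 and -0.04 in the single pairs (WT 0 h, WT 1 h, p65-deficient 0 h and p65-deficient 1 h, the order kept below), compared with 0.01, 0.02, 0.01 and 0.03 for all genes. All 4 pairs were lower for 19 members (28.8% of all genes) and higher for 2, CDC20 and PTTG1 (30.4% of all genes). Without overlap, all 4 CPT libraries lay below all 4 libraries without inhibitor for 14 members, as for 20.2% of all genes. Altogether the 40 genes held 0.729 to 0.765% of the counted reads in the CPT libraries, 0.811 to 0.850% without inhibitor and 0.832 to 0.882% with ICRF193. Fewer cells in G2 and mitosis and less RNA per cell cannot be told apart in such bulk samples.

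**Figure D1:**
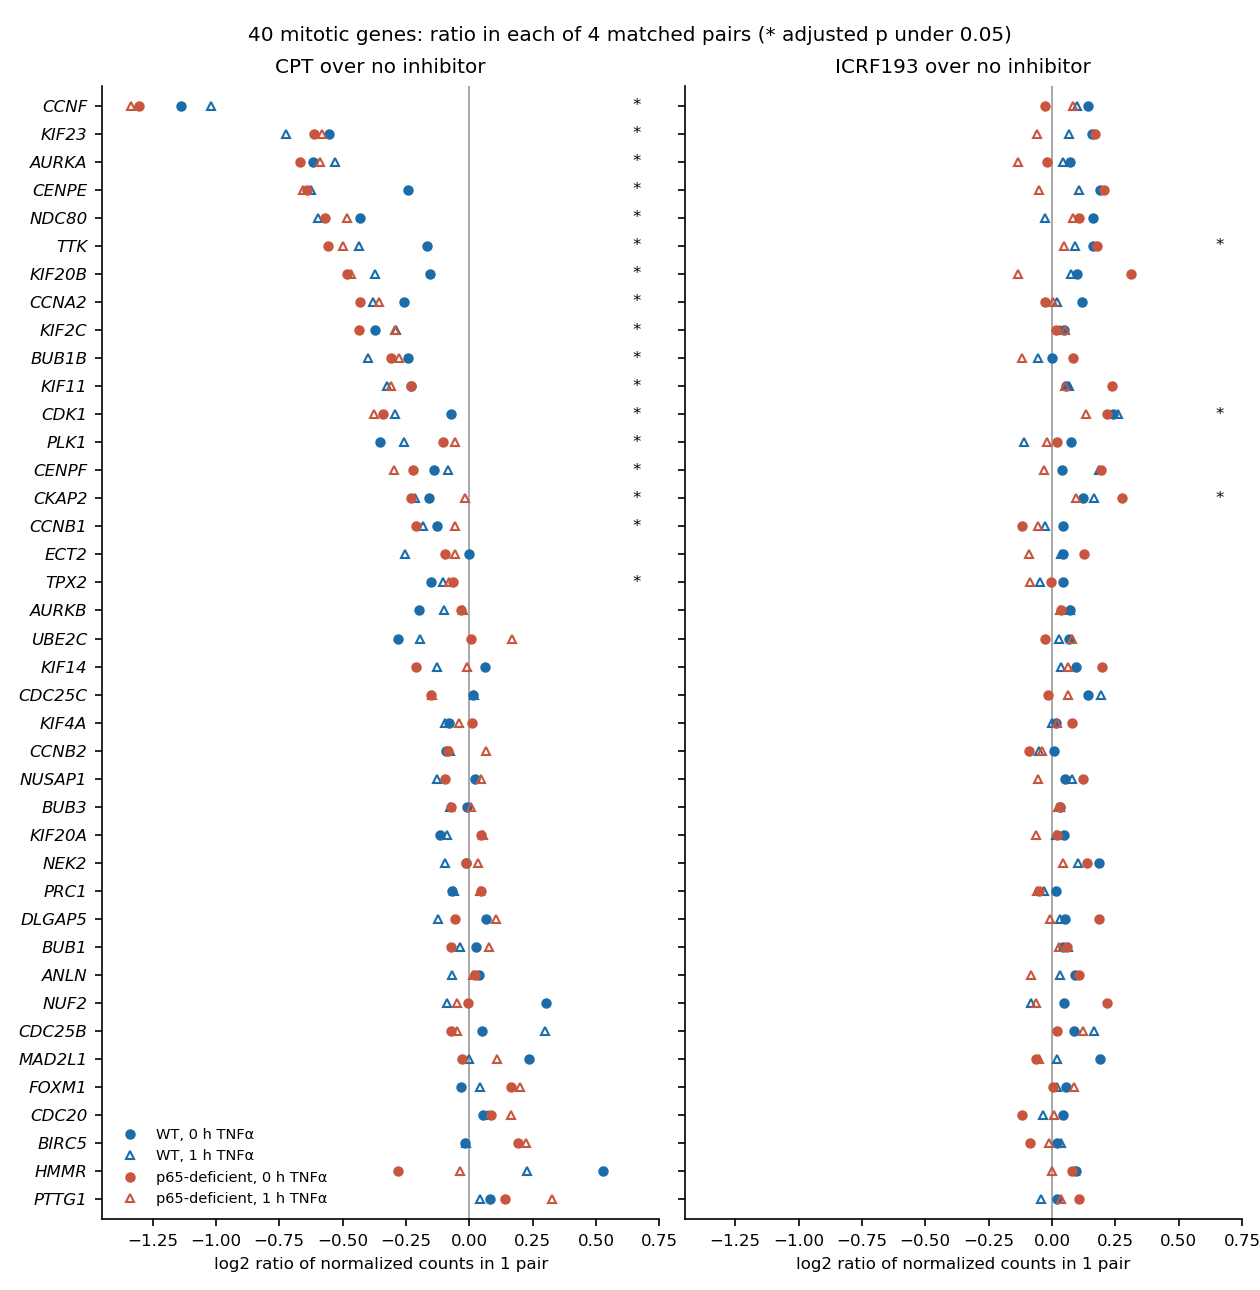
Log2 ratio of normalized counts (x axis) in each of 4 matched pairs for the 40 genes (y axis, ordered by the fitted CPT difference), for CPT on the left and ICRF193 on the right; color marks the line, filled circles 0 h and open triangles 1 h TNFα, and an asterisk an adjusted p under 0.05. With CPT, CCNF lies lowest at -1.34 to -1.02 and 17 genes with points left of 0 in every pair carry an asterisk, whereas with ICRF193 3 genes with points right of 0 in every pair carry one.

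Among the kinases, 4 of 7 fell with CPT. AURKA (Aurora A, hg19 chr20:54944445-54967351), which matures the spindle poles, was at 1293, 1360, 1238 and 1235 normalized counts with CPT and at 1983, 1963, 1967 and 1857 without inhibitor. The groups did not overlap and the pairs were alike (-0.61 ± 0.05 SE, adjusted p = 1.9e-06). The checkpoint kinase TTK had 1821, 1606, 1355 and 1537 with CPT and 2045, 2173, 1995 and 2170 without, and the WT 0 h pair showed the smallest difference (-0.42 ± 0.06, adjusted p = 0.000314). CDK1, the kinase that starts mitosis, was at 2512, 2287, 2264 and 2453 with CPT and 2638, 2802, 2870 and 3188 without (-0.28 ± 0.06, adjusted p = 0.00196). PLK1 (hg19 chr16:23690143-23701688), the polo-like kinase that promotes mitotic entry, had 1983, 2075, 2184 and 2130 with CPT compared with 2529, 2483, 2347 and 2214 without. These groups did not overlap but lay close in p65-deficient cells at 1 h, where the log2 ratio was -0.06 with a 95% counting interval of -0.17 to 0.06. Over the 4 pairs PLK1 was lower by -0.20 ± 0.05 (adjusted p = 0.00787). AURKB, BUB1 and NEK2 did not pass the threshold, with log2 fold changes of -0.10, -0.01 and -0.03.

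The largest difference of all members was seen for a cyclin. CCNF (cyclin F, hg19 chr16:2479395-2508859), the substrate receptor of a ubiquitin ligase that is active in G2, was at 1107, 1146, 1038 and 878 normalized counts with CPT. Without inhibitor it had 2439, 2323, 2561 and 2219, and with ICRF193 2695, 2491, 2510 and 2350. CPT thus lowered CCNF in all 4 pairs without overlap (-1.20 ± 0.06 SE, adjusted p = 7.74e-08). CCNA2, cyclin A2, had 2902, 2755, 2595 and 2607 with CPT and 3470, 3586, 3501 and 3338 without (-0.36 ± 0.05, adjusted p = 5.72e-05). CCNB1 fell less and its groups overlapped, with 6611, 6550, 5738 and 5913 against 7225, 7432, 6641 and 6145 (-0.15 ± 0.04, adjusted p = 0.0102). Its call was lost without the pair blocks (adjusted p = 0.115) and without the p65-deficient 0 h pair (adjusted p = 0.0717). CCNB2 and the phosphatases CDC25B and CDC25C were not called, at -0.06, 0.05 and -0.07.

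**Figure D2:**
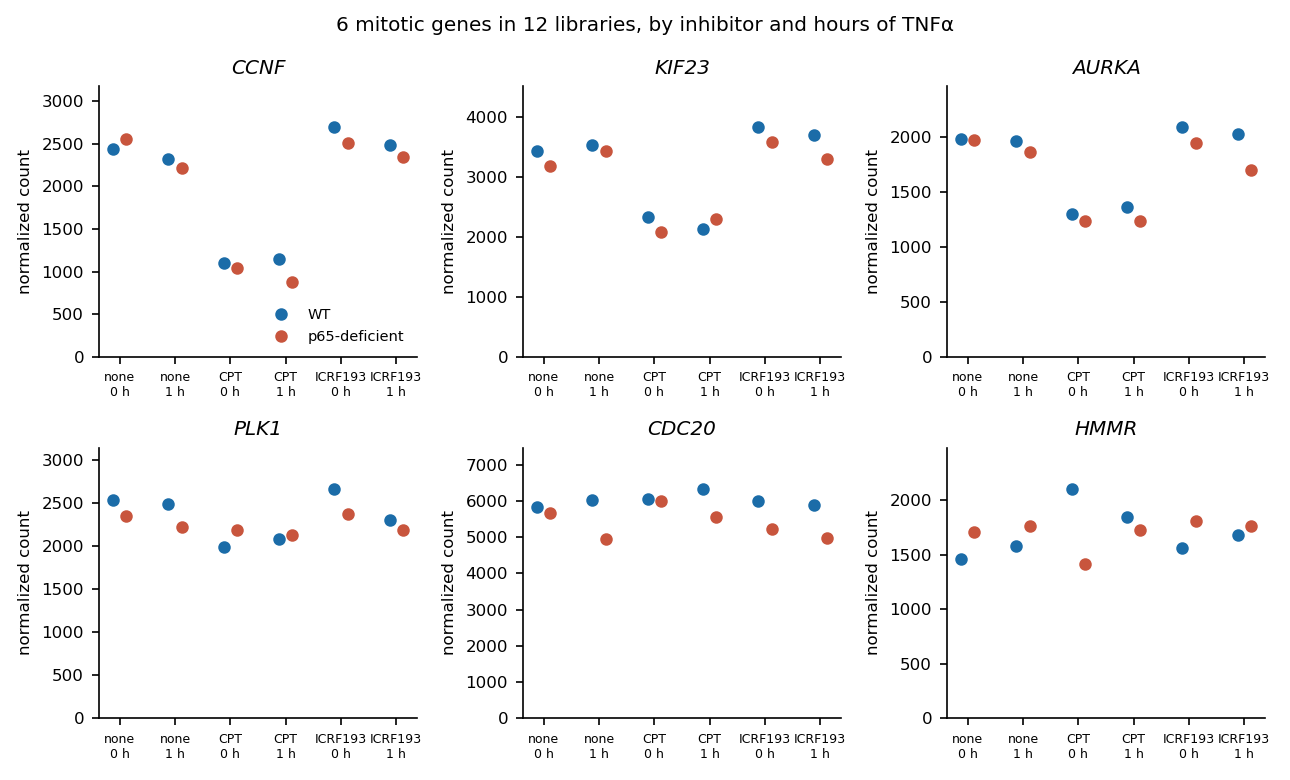
Normalized counts (y axis, from 0) of 6 genes in each of the 12 libraries, by inhibitor and hours of TNFα (x axis); 1 point is 1 library, blue WT and red p65-deficient. CCNF, KIF23 and AURKA are lower in all 4 CPT libraries than in the other 8, PLK1 differs less, CDC20 does not drop with CPT, and HMMR is highest in WT cells with CPT at 0 h (2107).

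Of the 7 kinesins, motor proteins that move along microtubules, 4 fell. KIF23, the midzone kinesin needed for cytokinesis (hg19 chr15:69706585-69740766), had 2333, 2140, 2084 and 2291 normalized counts with CPT and 3428, 3535, 3188 and 3433 without inhibitor (-0.63 ± 0.04 SE, adjusted p = 8.67e-07). KIF20B, another kinesin of cytokinesis, had 1636, 1421, 1386 and 1793 against 1822, 1837, 1935 and 2479 (-0.37 ± 0.06, adjusted p = 0.000451). Its CPT libraries all lay below those without inhibitor. KIF2C, which depolymerizes microtubules, and KIF11, which pushes the spindle poles apart, were lower by -0.36 ± 0.04 and -0.28 ± 0.05. KIF14, KIF20A and KIF4A were at -0.08, -0.03 and -0.06 and were not called.

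Of the 7 checkpoint and kinetochore genes, 4 fell. CENPE, the kinetochore motor, had 1413, 1126, 1071 and 1276 with CPT and 1670, 1735, 1670 and 2010 without (-0.54 ± 0.07 SE, adjusted p = 9.74e-05). The WT 0 h pair again differed least, at -0.24 compared with -0.66 to -0.62 in the other pairs. NDC80, the microtubule-binding subunit of the outer kinetochore, had 872, 841, 748 and 814 against 1175, 1272, 1109 and 1139 (-0.53 ± 0.06, adjusted p = 1.64e-05). The checkpoint protein BUB1B and the large kinetochore protein CENPF were lower by -0.31 ± 0.04 and -0.19 ± 0.05, the call of CENPF being lost without the p65-deficient 1 h pair. NUF2, the direct partner of NDC80 in the same complex, was not called and was at 737, 669, 655 and 685 with CPT compared with 598, 712, 657 and 709 without (0.04 ± 0.08). MAD2L1 and BUB3 were at 0.07 and -0.05.

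None of the 3 genes of cytokinesis and the chromosomal passenger complex, and of the 3 genes of the anaphase-promoting complex and its targets passed the threshold in edgeR or in DESeq2, nor did FOXM1. At an unadjusted p under 0.05 were ECT2 (lower) and CDC20 and PTTG1 (higher). ECT2 was at -0.11 ± 0.05 SE (adjusted p = 0.0815) and was called lower without the expression filter and without the WT 0 h pair. CDC20 had 6051, 6336, 6011 and 5556 normalized counts with CPT and 5835, 6023, 5671 and 4955 without, higher in 4 of 4 pairs by a log2 fold change of 0.09 ± 0.04 SE (adjusted p = 0.0832). PTTG1 (securin), the inhibitor of the protease that separates sister chromatids, had 1799, 1855, 1660 and 1813 against 1701, 1804, 1503 and 1446 (0.13 ± 0.05, adjusted p = 0.0524), and it has near-identical copies in the genome with which reads can be shared. With scaling by total counts, CDC20 and PTTG1 did pass the threshold and were called higher. FOXM1, the activator of many of these genes, was at 1719, 1776, 1938 and 1795 with CPT and 1757, 1727, 1729 and 1562 without (0.08 ± 0.05, adjusted p = 0.19). BIRC5 (survivin) was at 0.09 and ANLN (anillin, a scaffold of the cleavage furrow) at -0.01. Among the 6 spindle and midzone proteins, TPX2, which activates Aurora A, and CKAP2 fell by small amounts, -0.11 ± 0.04 and -0.17 ± 0.05, but neither call was stable. TPX2 was lost with DESeq2 size factors, in DESeq2, without the blocks and when any 1 pair was left out, and CKAP2 in DESeq2, without the blocks, and without the WT 1 h or the p65-deficient 0 h pair. In all 11 fits of this comparison the same 13 genes were called lower: AURKA, BUB1B, CCNA2, CCNF, CDK1, CENPE, KIF11, KIF20B, KIF23, KIF2C, NDC80, PLK1 and TTK.

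The order of the members by their CPT ratio was similar in the 4 pairs, while the size of the difference varied between pairs for some genes. Across the 40 genes, Spearman's correlation between the CPT ratios of 2 pairs was 0.60 to 0.87, where no libraries are shared, but genes are not independent replicates. Between the pairs with ICRF193 it was 0.04 to 0.56. The members lowered by CPT had a median span of 34182 bp and the 23 others of 19961 bp. Spearman's correlation between the CPT log2 fold change and the span was -0.32 over the 40 genes, close to -0.34 over 6220 genes with a mean of at least 500 reads. No test was made of this likeness.

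**Figure D3:**
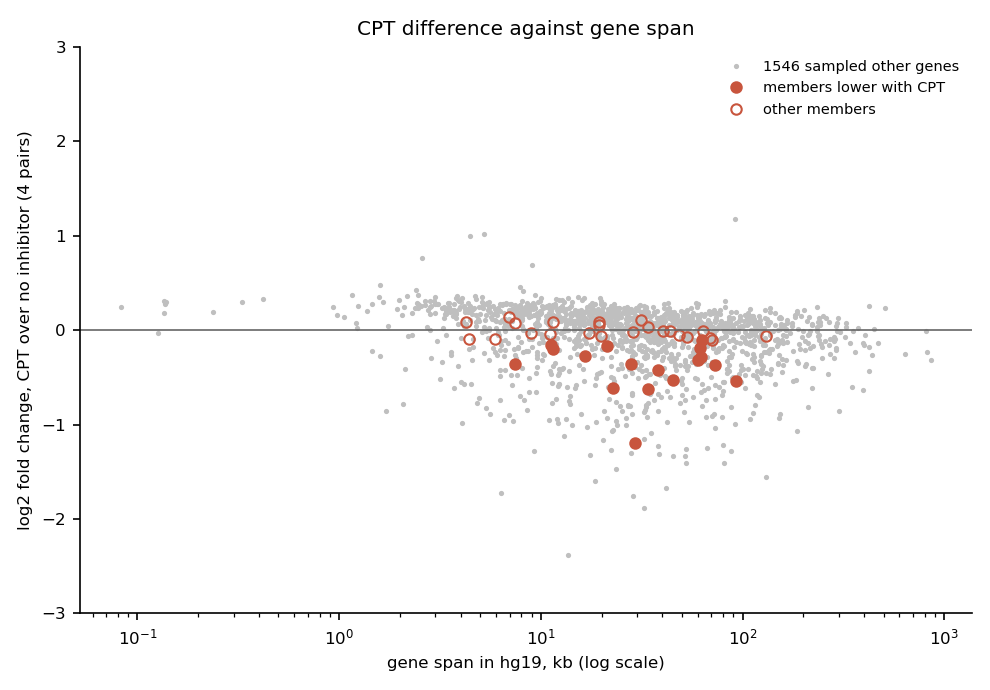
CPT log2 fold change over 4 pairs (y axis) against gene span in hg19 in kb (x axis, log scale) for the 40 members (red, filled where lower with CPT) and 1546 other genes with a mean of at least 500 reads (gray, an evenly spaced subset), of which 11 lie beyond the axis, which ends at 3 in either direction. The members lie within the cloud of all genes, CCNF being the lowest member at -1.20.

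Other genes of the same pathways were counted from lists by function. Of 71 further genes, 11 of them regulators of the DREAM and MYBL2-MuvB complexes, 28 were lower and 10 higher with CPT. Their median log2 fold change was -0.10. Of all genes, 25.1% were lower and 23.2% higher. The counts given here for condensin and the anaphase-promoting complex, and for the higher G1/S genes, lie near these shares, and nothing is read from them. Among 16 kinesins and spindle proteins 9 fell and 0 rose, led by KIF18A (-0.81), KIF18B (-0.74) and the centriole kinase PLK4 (-0.70). Of 20 kinetochore and passenger genes, 10 fell, with MIS12 at -0.97, CENPA at -0.64 and SGOL1 (shugoshin) at -0.63, and ZWINT (0.14) rose. In the anaphase-promoting complex 3 of 16 fell and 5 rose. The 2 lowered most were its inhibitor FBXO5 (EMI1, -1.12 ± 0.10 SE, adjusted p = 3.74e-06) and its activator FZR1 (-0.50), while the subunits CDC26 (0.39), ANAPC11 (0.31) and ANAPC16 (0.24) rose. Of 8 condensin genes 2 fell (SMC4 by -0.19 and NCAPH by -0.14) and 2 rose (NCAPD2 by 0.13 and NCAPH2 by 0.28). Of 11 regulators of the DREAM and MYBL2-MuvB complexes 4 fell, among them the shared subunits LIN54 (-0.65), LIN9 (-0.61) and LIN52 (-0.50), and 2 rose, RBBP4 (0.17) and TFDP1 (0.14). Of 7 tested genes that restrain the cell cycle in G2, 1 fell and 4 rose. WEE1 fell with 651, 551, 555 and 576 against 1386, 1451, 1136 and 1269 normalized counts (-1.17 ± 0.07, adjusted p = 1.92e-07). GADD45B (1.99), BTG2 (1.19) and GADD45A (0.39) were among those that rose, whereas the CDK inhibitor CDKN1A was not called (0.06). For GADD45B, BTG2 and GADD45A the CPT difference was itself larger in the clone (edgeR interaction), so that the value over 4 pairs describes neither line. BTG2 went from 356 to 594 and from 614 to 670 normalized counts in WT, and from 346 to 1476 and from 321 to 1252 in the clone (interaction 1.61 ± 0.15 SE, adjusted p = 7.4e-06). The interactions of GADD45B and GADD45A were 0.58 and 0.48. FBXO5 (0.53) fell less and KIF18A (-0.49) fell more in the clone by the same test. It also called further genes of these lists that are not named here, in both directions, and 4.78% of all genes tested. Of 25 G1/S and replication genes, 3 fell (E2F2, CDC25A, CDC6) and 6 rose, with a median of 0.08. In WT at 0 and 1 h these G1/S genes held 0.706 and 0.710% of the counted reads with CPT, against 0.703 and 0.702% without inhibitor. In the clone they held 0.756 and 0.754% with CPT against 0.686 and 0.692% without. The drug targets were at 0.10 (TOP1, not called) and -0.27 ± 0.04 (TOP2A, adjusted p = 0.000151), the latter being itself a G2/M gene.

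With the TOP2 inhibitor ICRF193, 3 of the 40 genes rose and none fell. Of 13631 genes tested, 0.587% were higher and 1.58% lower. At an unadjusted p under 0.05, 14 members were higher and 0 lower, beside 1573 of the 13631 genes in either direction. Of the members DESeq2 called only CDK1, beside 65 lower and 18 higher of all genes. CDK1 was at 3116, 3354, 3335 and 3501 normalized counts with ICRF193 compared with 2638, 2802, 2870 and 3188 without inhibitor. It was higher in 4 of 4 pairs, although the libraries overlapped between pairs (0.22 ± 0.03 SE, adjusted p = 2.23e-06). CKAP2, a spindle protein, was at 1994, 2012, 2035 and 1901 against 1832, 1795, 1682 and 1781 (0.17 ± 0.04, adjusted p = 0.0021), and these groups did not overlap. TTK was at 2286, 2313, 2258 and 2246 against 2045, 2173, 1995 and 2170 (0.12 ± 0.03, adjusted p = 0.0255), its differences being small in each pair. All 4 pairs were higher for 12 members, as for 8.88% of all genes. Without the pair blocks edgeR called 0 members, with 4 at an unadjusted p under 0.05. TTK was lost when either WT pair or the p65-deficient 0 h pair was left out, CKAP2 without the WT 1 h pair, and both with DESeq2. With ICRF193, AURKA had 2085, 2023, 1942 and 1694 normalized counts, PLK1 2663, 2302, 2376 and 2182, and KIF23 3828, 3702, 3588 and 3299. CENPE had 1905, 1869, 1923 and 1941, NDC80 1313, 1247, 1193 and 1205, and KIF20B 1950, 1933, 2405 and 2261. CCNA2 had 3762, 3636, 3433 and 3351. These genes were not called, with log2 fold changes from -0.01 (PLK1) to 0.12 (CENPE). CDC20 with 6008, 5878, 5223 and 4976, PTTG1 with 1725, 1750, 1619 and 1483, and FOXM1 with 1828, 1749, 1736 and 1657 were not called either (-0.02, 0.03 and 0.04). HMMR was at 1561, 1681, 1810 and 1767 and UBE2C at 2733, 2665, 2515 and 2370. Among the further genes, CDKN1A (0.30 ± 0.03, adjusted p = 3.12e-09) and BTG2 (0.41), which restrain proliferation, rose with ICRF193, as did TOP2A (0.18), ASPM (0.14) and SMC4 (0.11). Scaling by total counts changed the split over all genes from 216 lower and 80 higher to 163 lower and 100 higher.

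Since both inhibitors were used at the same dose and for the same time, they were also compared directly in 4 pairs. With CPT 18 members were lower than with ICRF193 and none was higher, against 25.5% lower and 20.9% higher of 13900 genes. At an unadjusted p under 0.05, 21 members were lower and 0 higher, beside 7377 of the 13900 genes in either direction. DESeq2 called 15 members lower and 0 higher, beside 2811 lower and 2386 higher of all genes. The members' median log2 fold change was -0.14 compared with 0.01 over all genes. CCNF (-1.29 ± 0.06 SE, adjusted p = 2.13e-09), KIF23 (-0.73 ± 0.06), CENPE (-0.67 ± 0.07), AURKA (-0.62 ± 0.06) and NDC80 (-0.62 ± 0.06) differed most. CDK1 differed by -0.50 ± 0.06 (adjusted p = 7.57e-06), its level in each pair being above that without inhibitor for ICRF193 and below it for CPT. CDC20 was not among the genes called. HMMR was called higher with CPT in the 2 deep WT pairs taken alone.

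The p65-deficient clone differed from WT in 10 of the 40 members over 6 pairs, 5 lower and 5 higher. Of 13730 genes, 16.9% were lower and 15.2% higher, and the medians were -0.02 for the members and 0.00 for all genes. The counts of members do not exceed these shares, and nothing is read from them. The lower members with 1 direction in 6 of 6 pairs were KIF2C (-0.22 ± 0.03 SE, adjusted p = 0.00023), CCNB1 (-0.21 ± 0.04, adjusted p = 0.000552), PTTG1 (-0.15 ± 0.04) and CDC20 (-0.15 ± 0.04), and BIRC5 was lower in 5 pairs (-0.16 ± 0.05). CDC25B, a phosphatase that activates CDK1 early in G2, was higher in 6 of 6 pairs (0.34 ± 0.05, adjusted p = 0.000143). It was at 2499, 2388, 2379, 2308, 2536 and 2599 normalized counts in the clone (no inhibitor, CPT and ICRF193, each at 0 and 1 h) and at 1956, 1676, 2028, 2062, 2078 and 1879 in WT. All 6 values of the clone thus lay above those of WT. KIF2C was at 2921, 2721, 2158, 2218, 2954 and 2817 in the clone and at 3335, 3216, 2578, 2629, 3451 and 3283 in WT, where the WT libraries with CPT lay below the clone libraries without it. KIF20B (0.20), KIF14 (0.16), KIF20A (0.13) and ANLN (0.12) were also higher. KIF20A, a kinesin of the midzone, had 3047, 2931, 3141, 3047, 3092 and 2805 in the clone against 2875, 2762, 2654, 2596, 2972 and 2792 in WT. ANLN had 5889, 5985, 5974, 6042, 6338 and 5647 against 5402, 5514, 5546, 5262, 5759 and 5631, and both genes overlapped between the lines. CCNB1 was at 6641, 6145, 5738, 5913, 6114 and 5922 in the clone and 7225, 7432, 6611, 6550, 7450 and 7299 in WT, where the lines overlapped between the CPT libraries of WT and the clone without inhibitor. The 4 shallow libraries are all of this clone. In the 2 pairs without them, edgeR called 0 members (3 at an unadjusted p under 0.05) and 521 genes, 295 lower and 226 higher. Without the treatment blocks, 1 member was lower (CCNB1) and 2 higher (CDC25B and ANLN). Scaling by total counts gave 5 lower and 8 higher members and turned the split over all genes from 2316 lower and 2092 higher to 1802 lower and 2436 higher.

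**Figure D4:**
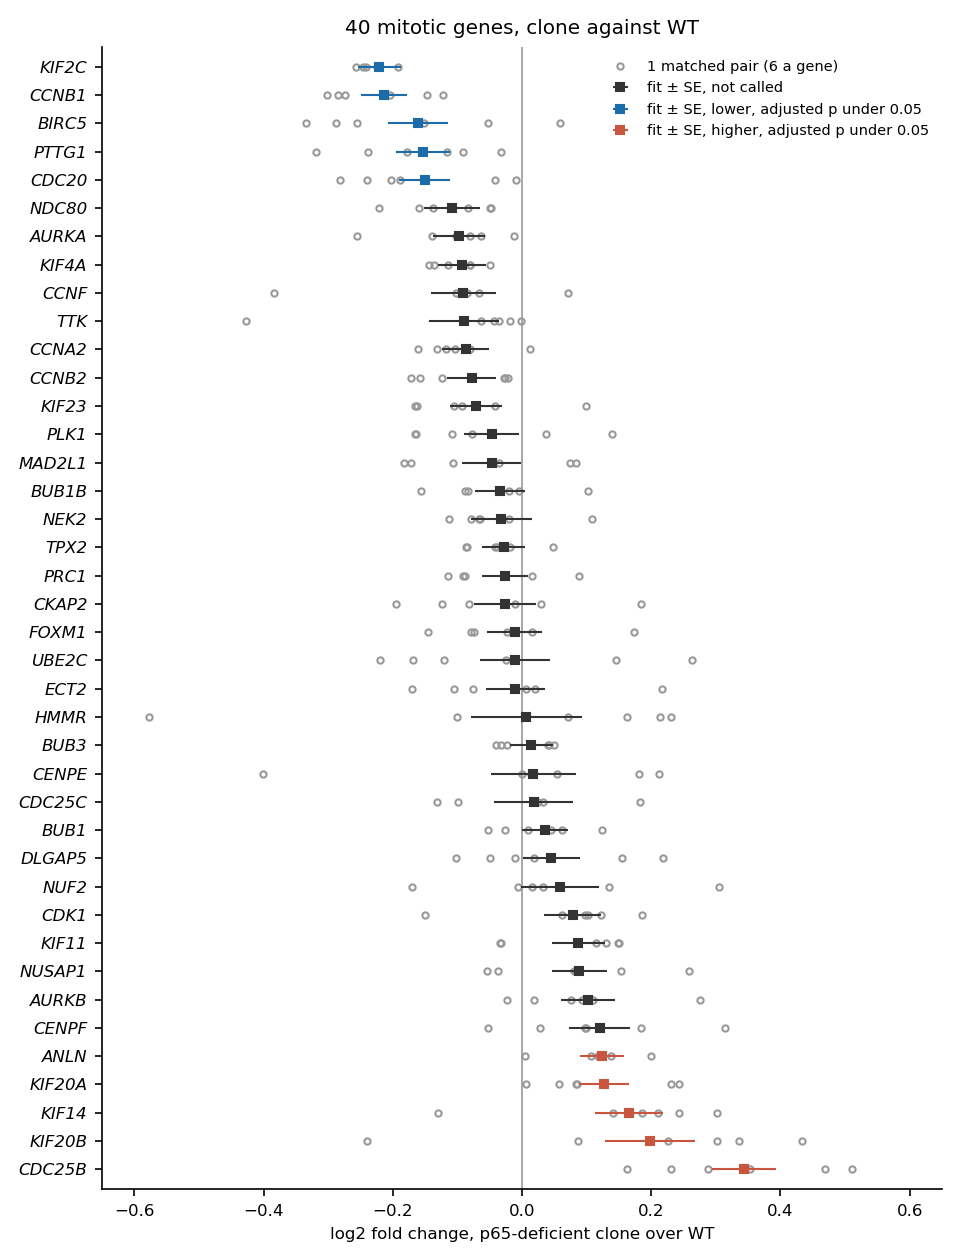
Log2 fold change of the p65-deficient clone over WT (x axis) for the 40 genes (y axis); squares with bars are the fit over 6 pairs with its SE, colored where the adjusted p is under 0.05, and gray circles are the ratios of the single pairs. KIF2C (-0.22) and CDC25B (0.34) lie at the ends, and for HMMR the pairs range from -0.58 to 0.23.

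TNFα for 1 h changed none of the 40 members over 6 pairs, and 0.189% of 13730 genes were called. These pairs include the p65-deficient clone, in which the paper reports that TNFα induction was almost lost. In the WT pairs alone 88 genes and 0 members were called. Where an inhibitor was given, the 1 h libraries had been in it for 3 h and the 0 h libraries for 2 h. This holds for the interaction below as well. At an unadjusted p under 0.05 there were 3 members, CCNF (-0.11), MAD2L1 (0.09) and KIF20A (-0.07), beside 745 of the 13730 genes. DESeq2 called 0 members. In all members the log2 fold change lay between -0.11 and 0.09. The CPT difference at 1 h was compared with that at 0 h TNFα by an interaction, and no member was called by edgeR or DESeq2, with 0 at an unadjusted p under 0.05 and 0.00686% of 14573 genes called. The estimates lay between -0.22 and 0.14 and were led by NUF2 (-0.22 ± 0.16 SE), whose error is close to its size.

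The CPT difference itself differed between the lines for 2 of the 40 genes, HMMR and UBE2C, while 4.78% of 14573 genes were called. The count of members lies near this share, and nothing is read from it. At an unadjusted p under 0.05, the CPT log2 fold change of 8 members was lower and of 3 higher in the clone, beside 2824 of all genes in either direction. Among these members were CCNF (-0.26), CENPE (-0.24) and PLK1 (0.20), none of which passed the adjusted threshold. HMMR, a hyaluronan receptor that also organizes the spindle (hg19 chr5:162887517-162918953), was at 2107 and 1850 normalized counts with CPT in WT cells compared with 1461 and 1581 without inhibitor. In the clone it was at 1413 and 1725 with CPT and at 1715 and 1769 without. The log2 ratios were 0.53 (95% counting interval 0.45 to 0.61) and 0.23 (0.14 to 0.31) in WT, and -0.28 (-0.37 to -0.19) and -0.04 (-0.16 to 0.09) in the clone. The difference between the lines was -0.57 ± 0.11 SE (adjusted p = 0.00459, edgeR interaction), and DESeq2 called it as well. Within each line the ratio was farther from 0 at 0 h than at 1 h, and without the p65-deficient 0 h pair the call was lost (-0.43, adjusted p = 0.0727). Of the exons of HMMR, 305 bp (9.7%) overlap the antisense gene HMMR-AS1, which had 1 to 4 reads in each of these 8 libraries. UBE2C, the ubiquitin-conjugating enzyme of the anaphase-promoting complex, was at 2144 and 2280 with CPT against 2606 and 2612 without in WT, and at 2572 and 2522 against 2561 and 2243 in the clone. Its difference between the lines was 0.30 ± 0.08 (adjusted p = 0.0459). It was lost with total-count scaling, without the blocks, without either p65-deficient pair and in DESeq2 (adjusted p = 0.216). For the ICRF193 and TNFα differences between the lines, tests added after the data were seen called 0 members in edgeR. At an unadjusted p under 0.05 were 1 and 4 members, beside 677 and 1432 of all genes.

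**Figure D5:**
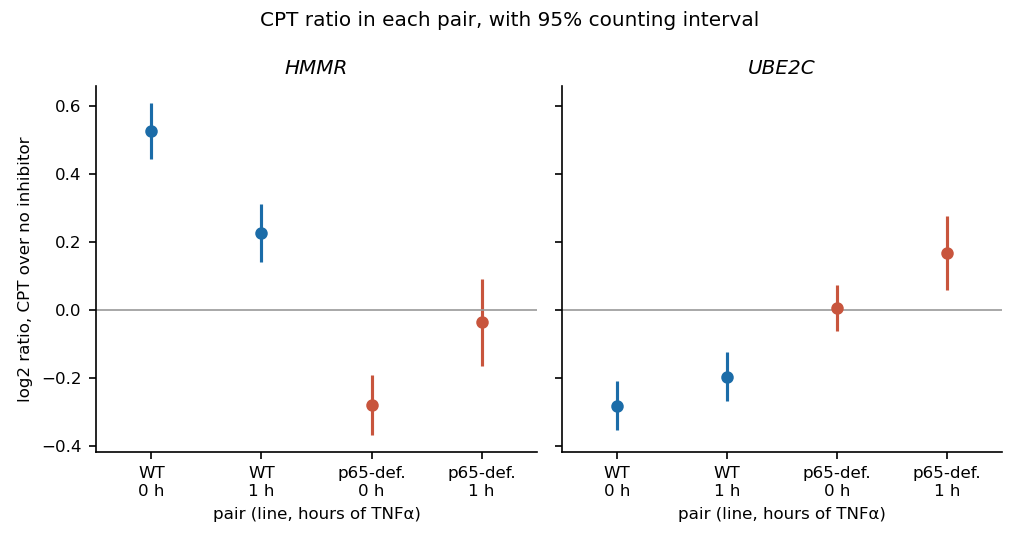
Log2 ratio of CPT over no inhibitor (y axis) in each of 4 pairs (x axis) for HMMR and UBE2C; bars are 95% counting intervals, blue WT and red p65-deficient. The WT ratios of HMMR lie above 0 (0.53 and 0.23) and those of UBE2C below 0 (-0.28 and -0.20), with the clone at -0.28 and -0.04 for HMMR and 0.01 and 0.17 for UBE2C.

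Exons of 9 members overlap another gene in the annotation, most on the opposite strand, and without strand such reads cannot be assigned to either gene. Among the genes lowered by CPT these were PLK1 (63 bp shared with ERN2), CCNA2 (254 bp with EXOSC9) and BUB1B (172 bp with PAK6), which make up 2.83, 9.08 and 4.6% of their exonic length.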

How the data were processed

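Total RNA of 12 HCT116 cultures was sequenced by the authors after preparation with a stranded total RNA kit. The submitters' processing notes name Trimmomatic, STAR, featureCounts and the genome build hg19. The deposited values, as the authors made them, are raw counts, the number of reads on the exons of each gene symbol. The file headers give featureCounts 1.5.0 and no strand option.

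Each comparison was fitted over all genes with edgeR 4.0.16 (R 4.3.3) by the quasi-likelihood test with TMM scaling, the expression filter of edgeR, the matched pair as a block and Benjamini-Hochberg adjustment over all genes tested. An adjusted p under 0.05 was the threshold. CPT, ICRF193 and their direct comparison used 4 pairs, line and TNFα used 6, and interaction terms tested differences between effects. CPT and ICRF193 share the 4 libraries without inhibitor, so that their differences from no inhibitor are not independent. Standard errors were derived from the fold change and the test statistic. Ratios of 2 libraries used DESeq2 1.42.0 size factors, no pseudocount and exact 95% intervals (Clopper-Pearson) that hold for counting error alone. Pairs stand in for replicates, as all 12 libraries are the only one of their condition and nothing in the labels says that cultures were repeated. The fitting script was tested on simulated data. Alternatives were DESeq2, other scaling, no filter, no block, and leaving out 1 pair or all pairs with a shallow library. Members and gene lists were chosen with earlier results of these data known. All 40 genes could be named; values in every library were given for PLK1, CCNB1, CDC20, CDK1, AURKA, FOXM1, for the 8 genes lowered most by CPT, and for genes called with 1 direction in every pair in the other comparisons (for the clone, the 4 lowered and 4 raised most); of the further lists at most the 3 lowered and the 3 raised most by CPT were named, with CDKN1A, WEE1, RELA, TOP1 and TOP2A always. NUF2 was added after its values were seen, and ASPM was named for ICRF193 outside this rule. Promoter sequences came from RefSeq (GRCh38.p14), while gene positions are those of the hg19 count tables.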

Additional observations from a re-analysis of the deposited data

Results flagged for a closer look

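The CPT difference of HMMR differed between the lines by a test of the difference itself (edgeR interaction, -0.57 ± 0.11 SE on the log2 scale, p65-deficient minus WT, adjusted p = 0.00459). HMMR was higher with CPT in 2 of 2 WT pairs. In the p65-deficient pairs it was lower at 0 h (1413 against 1715 normalized counts) and close at 1 h (1725 against 1769). The same test picked out UBE2C with the opposite sign (0.30 ± 0.08, adjusted p = 0.0459), lower in 2 of 2 WT pairs, with 2572 against 2561 normalized counts (a log2 ratio of 0.01) and 2522 against 2243 in the p65-deficient pairs. This call of UBE2C was lost in DESeq2, with total-count scaling, without the blocks, without shallow pairs and without either p65-deficient pair, and that of HMMR without the p65-deficient 0 h pair. The line is represented by 1 clone, and 2 of the 4 libraries of its CPT pairs (both at 1 h TNFα) are among the shallow ones. The part of the clone or of depth in these differences was not tested.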

How the results depend on the processing

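For CPT against no inhibitor the number of members lower was 14 to 18 in the alternatives and 14 to 17 when 1 pair was left out. The number higher was 2 with total-count scaling and 0 to 1 when 1 pair was left out (HMMR, without the p65-deficient 0 h pair). For CPT against ICRF193, 15 to 22 members were lower, and 1 was higher in the pairs without shallow libraries. For ICRF193 the number higher was 3 with TMM scaling, 1 with DESeq2, 0 with no replicate block, and 1 to 6 when 1 pair was left out. For the clone, 5 members were lower and 5 higher. These numbers were 1 and 2 with no replicate block, 0 and 0 in the pairs without shallow libraries (2 pairs, edgeR), and 10 and 8 without the CPT pairs. In this last fit 2955 genes were lower and 2790 higher of all 13631 tested. With total-count scaling 8 members were higher, and leaving out 1 pair gave 3 to 6 members lower and 2 to 10 higher. For the CPT difference between the lines, 1 member lower and 1 higher became 1 and 0 with total-count scaling, DESeq2, no replicate block or without shallow pairs, and 0 to 6 lower and 0 to 3 higher when 1 pair was left out. The cause of these changes was not tested. No member was called for TNFα or for CPT at 1 h against 0 h in any fit. None of the 180 alternative values of single-pair ratios was counted as changed in direction, and no fitted value of a named member was reversed. The UBE2C ratio of the p65-deficient 0 h pair (3296 reads with CPT, 3651 without inhibitor) still has no stable sign. It lay just above 0 with DESeq2 size factors and below 0 with TMM size factors (1.29 with CPT, 1.39 without inhibitor). Over all genes, calls numbered 296 for ICRF193 but 83 with DESeq2, 3 with no replicate block and 148 to 322 when 1 pair was left out. For the clone, 4408 calls became 2043 with no replicate block and 521 without shallow pairs. For TNFα 26 calls became 7 with DESeq2, 17 with total-count scaling, 114 with no filter, 0 with no replicate block, 88 in WT pairs only, 84 without inhibitor only, and 7 to 102 when 1 pair was left out. For CPT at 1 h against 0 h, 1 call became 21 with no filter and 7 to 63 when 1 pair was left out. For CPT between the lines, 696 calls became 1096 with no filter, 148 with DESeq2, 399 with no replicate block, and 277 to 1697 when 1 pair was left out. The pairs share line and treatment by design, and no replicate numbers pair the samples. Without the blocks, CPT against no inhibitor lost CCNB1, TPX2 and CKAP2 among the members (5180 calls over all genes in place of 6763), CPT against ICRF193 lost AURKB, NEK2 and KIF14, and the CPT difference between the lines lost UBE2C. All 40 members had at least 100 reads in each library, and the clone fit without shallow libraries rests on 2 pairs.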
